A study of Homo sapiens with 12 samples.

Results

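The comparison described here set NF1 knockout cells against control cells of the same line while both were under the PI3K inhibitor alpelisib. The 3 NF1KO BYL719 and 3 CTRL BYL719 libraries were chosen by their labels, without use of any measured value, and they are 6 of the 11 libraries in the count table. Every gene with enough counts was taken, which was 16081 of 27864. T47D is an established luminal breast cancer line that expresses the estrogen receptor. In bulk RNA from such cultures, fewer cells in a state and less RNA per cell cannot be told apart. In NF1KO BYL719 and CTRL BYL719, cells labelled as NF1 knockout or as control were kept in 3 µM BYL719, the code name of alpelisib, for 48 h. In NF1KO DMSO (2 libraries) and CTRL DMSO (3 libraries) the same lines received the vehicle for 48 h and served as the drug-free counterpart. The remaining labelled library, replicate 1 of NF1KO DMSO, is not analysed here. The labels number the replicates 1 to 3, and say neither that they were separate cultures nor that the knockout was made more than once, so p-values measure the spread between libraries of a line, and a difference between the lines cannot be told apart from other differences between a pair of cell lines.

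Neurofibromin, the product of NF1, speeds GTP hydrolysis by RAS and so returns it to the inactive state. Active RAS drives the RAF, MEK and ERK kinases, whose output includes ETS factors, dual-specificity phosphatases and Sprouty proteins, several of which damp the pathway in turn. RAS can also engage PI3K, the lipid kinase upstream of AKT and mTOR, and alpelisib blocks its alpha isoform, the product of PIK3CA. In luminal breast cancer cells PI3K inhibition is known to slow entry into the cell cycle and to release FOXO-driven expression of receptors such as ERBB3.

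The 6 libraries compared held between 54219091 and 60148876 counts each, and the 11 together between 53283945 and 60148876. Values below are CPM, counts scaled to a common library total, on TMM-scaled library sizes, given in the order of replicates 1, 2 and 3. A log2 fold change is NF1KO over CTRL with its standard error, and a gene is said to have risen, fallen or changed where the adjusted p was under 0.05. Both CTRL libraries numbered 1 stood apart. The root mean square deviation from the group mean, in log2 CPM, was 0.264 for CTRL BYL719 replicate 1 and 0.237 for CTRL DMSO replicate 1, against 0.143 to 0.199 for the other 9 libraries. In CTRL BYL719 replicate 1 the fifth of genes with the longest annotated transcripts lay at a median of 0.15 above the other 2 libraries of its group on the log2 scale, and the fifth with the shortest lay 0.21 below them (median -0.21). Across the other 5 libraries compared, those medians lay between -0.10 and 0.060 for the longest and between -0.098 and 0.16 for the shortest.

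**Figure D1:**
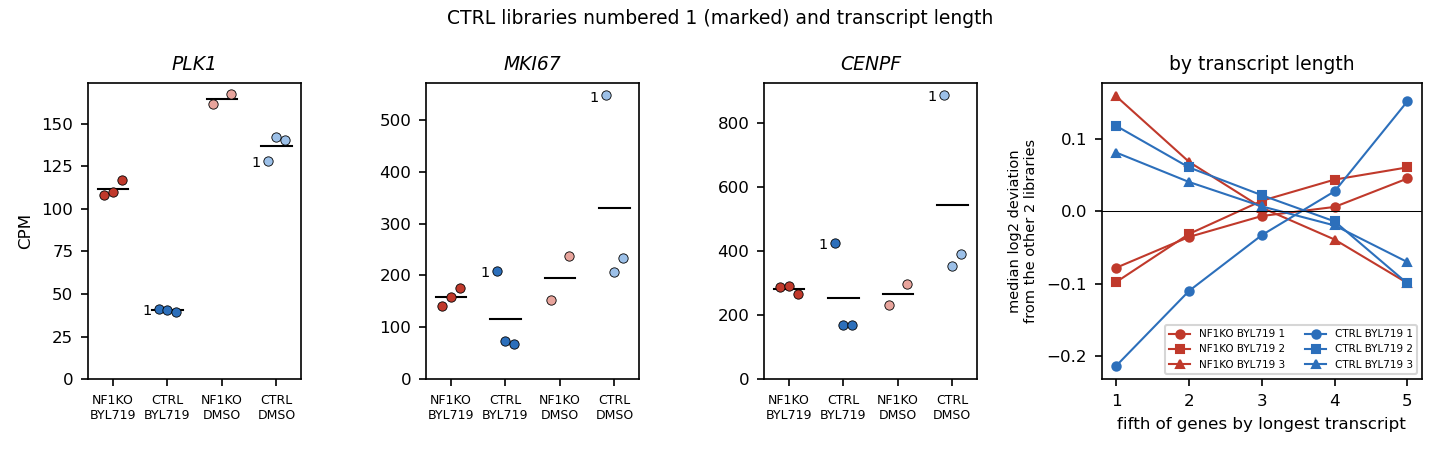
CPM of PLK1, MKI67 and CENPF in every library, with a bar at the group mean and the CTRL libraries numbered 1 marked, and, at the right, the median log2 deviation of each BYL719 library from the other 2 of its group for 5 equal groups of genes by transcript length. MKI67 and CENPF are far higher in CTRL libraries numbered 1 than in the other CTRL libraries, PLK1 is not, and CTRL BYL719 replicate 1 has the steepest slope with length.

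Luminal markers were present in every library. KRT8, a luminal keratin that overlaps KRT18, had 3582, 3609.7 and 4037 CPM in NF1KO BYL719, against 3955, 5118 and 4918 CPM in CTRL BYL719. It fell (log2 fold change -0.32 ± 0.11, adjusted p = 0.0326), a call that did not hold without CTRL BYL719 replicate 2 or 3 or without NF1KO BYL719 replicate 1 or 2. GATA3, a luminal transcription factor, had 759.6, 874 and 818 CPM in NF1KO BYL719, against 683, 763 and 794 CPM in CTRL BYL719. Of 17 mesenchymal markers, 6 passed the filter on low counts, and their list summed to between 24.7 and 31.8 CPM in NF1KO BYL719 and between 32.9 and 40.6 CPM in CTRL BYL719, most of it COL1A1. FAP and TWIST2 had no count in either group. Of 13 immune and endothelial markers, 5 passed, and the sums were 2.81 to 3.67 CPM in NF1KO BYL719 and 3.42 to 4.06 CPM in CTRL BYL719. Single members still differed: TWIST1, a transcription factor of mesenchymal cells, had 1.08, 1.66 and 1.35 CPM in NF1KO BYL719, against 0.0338, 0.0186 and 0.0173 CPM in CTRL BYL719 (log2 fold change 5.73 ± 0.35, adjusted p = 1.07e-07).

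NF1 mRNA checked the labels. NF1 (Entrez gene 4763, chromosome 17, 31094977 to 31377675, GRCh38.p14) had 0.891, 0.547 and 0.400 CPM in NF1KO BYL719, against 214, 147 and 152 CPM in CTRL BYL719. The NF1KO libraries lay far below the CTRL libraries (log2 fold change -8.11 ± 0.25, adjusted p = 3.93e-10). They did not overlap, which was so in either direction for 7859 of all tested genes (48.9%). In the absence of drug it had 0.480 and 0.471 CPM in NF1KO DMSO, against 289, 209 and 249.99 CPM in CTRL DMSO. Of the other 10 RAS GTPase-activating proteins tested, RASAL1 rose and RASA3, DAB2IP and RASA4 fell, with log2 fold changes of 1.01, -0.91, -0.35 and -0.61, while the value of RASA1 was -0.11 ± 0.08, adjusted p = 0.282. Without CTRL BYL719 replicate 1, 3 of these genes rose.

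Under BYL719, 3343 genes (20.8% of those tested) were higher and 3061 (19.0%) were lower in NF1KO than in CTRL. A change of more than 2-fold was seen for 795 of the higher (4.94%) and 779 of the lower genes (4.84%). The median log2 fold change over all tested genes was -0.0025. In DMSO, with 1 NF1KO library fewer, 1607 genes (9.99%) were higher and 1662 (10.3%) were lower. The contrasts share no library, and 2432 genes changed in the same direction in both, which is 38.0% of the BYL719 list and 74.4% of the DMSO list. Another 69 genes changed in opposite directions. The difference between the contrasts, tested in the same model, was positive for 914 genes (5.68%) and negative for 596 (3.71%).

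**Figure D2:**
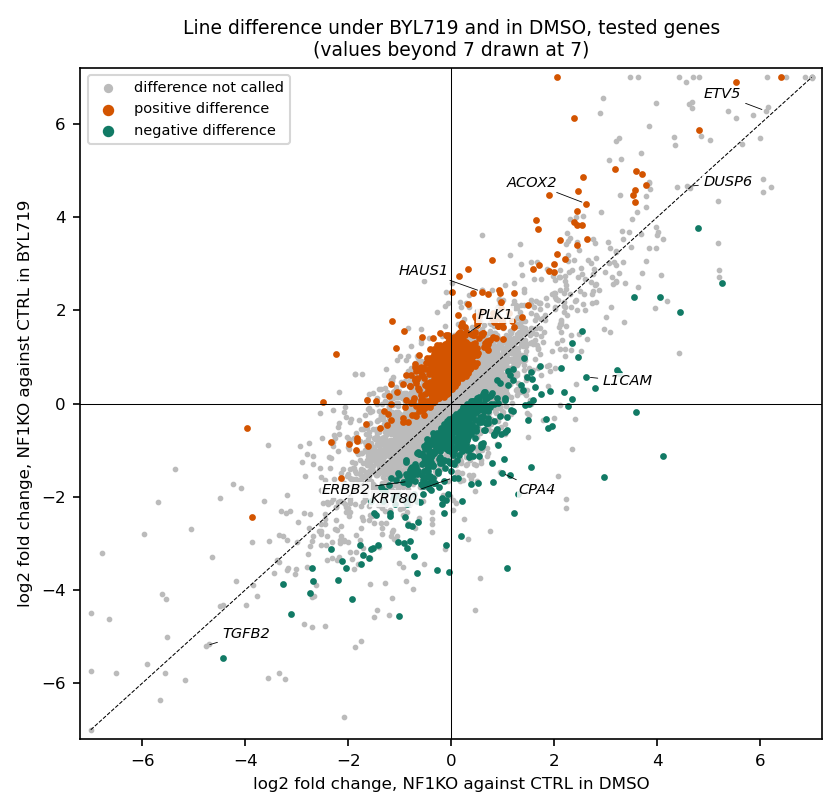
Log2 fold change of NF1KO against CTRL in BYL719 (vertical axis) against that in DMSO (horizontal axis) for 16081 genes, with genes coloured where the difference between the treatments passed an adjusted p of 0.05. A dense positive cloud that includes PLK1 sits near 0 in DMSO and near 1 in BYL719, whereas DUSP6 and ETV5 lie close to the diagonal.

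Each of 4 marker genes separated the lines. They were given beforehand as markers of this comparison, so their separation is a description and no independent test. TRIM55, a muscle RING-finger ubiquitin ligase, had 13.8, 12.4 and 14.5 CPM in NF1KO BYL719, against 0.152, 0.112 and 0.0690 CPM in CTRL BYL719 (log2 fold change 6.90 ± 0.22, adjusted p = 3.93e-10). ETV5, an ETS factor induced by ERK signalling (chromosome 3, 186046314 to 186109089), had 9.63, 12.0 and 11.7 CPM in NF1KO BYL719, against 0.102, 0.223 and 0.104 CPM in CTRL BYL719 (6.28 ± 0.21, adjusted p = 7.27e-10). Both were low in every CTRL BYL719 library. TGFB2, a TGF-beta ligand (chromosome 1, 218345336 to 218444619), had 1.99, 2.12 and 1.78 CPM in NF1KO BYL719, against 77.3, 73.0 and 66.4 CPM in CTRL BYL719 (-5.20 ± 0.10, adjusted p = 1.31e-11). TGFB2-OT1 overlaps it and holds 20.3% as many counts, and the counting tool and its use of strand are not given in the sources used here. ERBB2, the receptor tyrosine kinase HER2 (chromosome 17, 39688094 to 39728658), had 175, 206 and 195 CPM in NF1KO BYL719, against 549, 640.2 and 642 CPM in CTRL BYL719 (-1.67 ± 0.087, adjusted p = 3.06e-08).

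Without drug the marker genes also separated the lines. ERBB2 had 149 and 147 CPM in NF1KO DMSO, against 238, 267 and 275 CPM in CTRL DMSO, so that the gap between the lines was wider under BYL719 (difference of log2 fold changes -0.85 ± 0.13, adjusted p = 0.00115). TGFB2 had 0.277 and 0.272 CPM in NF1KO DMSO, against 7.99, 7.45 and 7.13 CPM in CTRL DMSO, lower in both lines than under BYL719, but the gap between the lines was not shown to change (-0.43 ± 0.23, adjusted p = 0.428). TRIM55 had 13.3 and 16.5 CPM in NF1KO DMSO, against 0.412, 0.310 and 0.241 CPM in CTRL DMSO, with a wider gap under BYL719 (1.38 ± 0.37, adjusted p = 0.035). That TRIM55 difference missed the threshold when any of 7 libraries was left out in turn, including CTRL DMSO replicate 1 (adjusted p = 0.108) and CTRL BYL719 replicate 3 (adjusted p = 0.129). For ETV5 the difference was 0.17 ± 0.35, adjusted p = 0.85.

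**Figure D3:**
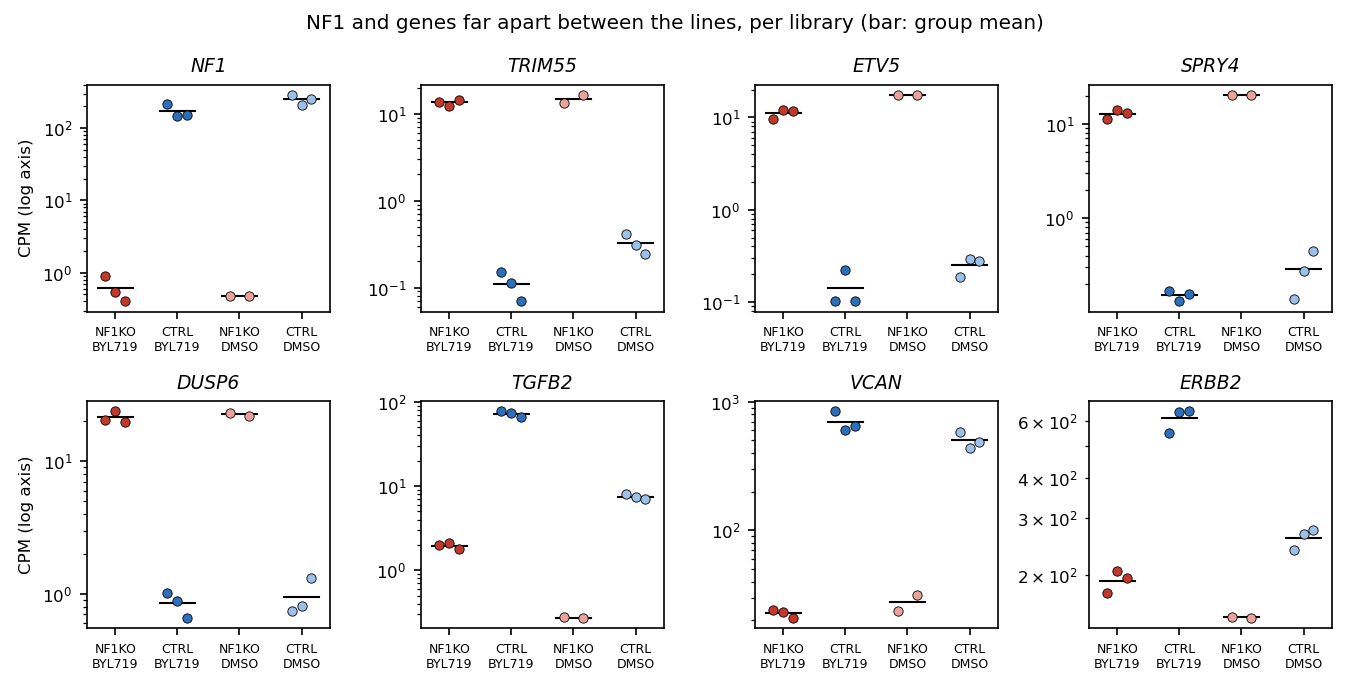
CPM on a log axis of NF1 and 7 genes in each of the 11 libraries, with a bar at each group mean. In every panel the NF1KO BYL719 points at the left lie apart from the CTRL BYL719 points, NF1, TGFB2, VCAN and ERBB2 below them and TRIM55, ETV5, SPRY4 and DUSP6 above them.

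Output genes of the ERK pathway were among the most raised. Of the 26 listed and tested, 16 rose and 5 fell, with a median log2 fold change of 0.79. DUSP6, a phosphatase that dephosphorylates ERK, had 20.7, 23.8 and 19.96 CPM in NF1KO BYL719, against 1.02, 0.874 and 0.656 CPM in CTRL BYL719 (4.66 ± 0.19, adjusted p = 3.59e-09). SPRY4, a Sprouty inhibitor of receptor signalling to ERK, had 11.2, 13.9 and 13.0 CPM in NF1KO BYL719, against 0.169, 0.130 and 0.155 CPM in CTRL BYL719 (6.36 ± 0.24, adjusted p = 2.11e-09). DUSP4, a nuclear MAP kinase phosphatase, had 74.1, 78.6 and 69.4 CPM in NF1KO BYL719, against 5.41, 5.65 and 5.13 CPM in CTRL BYL719 (3.78 ± 0.084, adjusted p = 3.74e-11). All 3 feedback genes were higher in NF1KO. ETV4, another ETS factor, had 4.87, 8.12 and 7.96 CPM in NF1KO BYL719 and no count in any CTRL BYL719 library. Against a floor of 3 counts over the CTRL group this is at least 396-fold higher. ETV4 overlaps DHX8, and how the counter assigned reads lying in both genes is not given in the sources used here. ETV1, of the same ETS subfamily, had 2.45, 2.83 and 2.33 CPM in NF1KO BYL719, against 0.135, 0.112 and 0.0863 CPM in CTRL BYL719 (4.48 ± 0.23, adjusted p = 2.34e-08).

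Other members of the list moved less or the other way. SPRED1, a partner of neurofibromin at the membrane, averaged 17.8 ± 3.06 CPM in NF1KO BYL719 and 5.26 ± 0.168 CPM in CTRL BYL719 (SD, n = 3 each; log2 fold change 1.76 ± 0.13, adjusted p = 5.86e-07). CCND1, which encodes cyclin D1, had 261, 311 and 284 CPM in NF1KO BYL719, against 159, 137 and 150.4 CPM in CTRL BYL719 (0.94 ± 0.085, adjusted p = 2.94e-06). EPHA4, an Eph receptor, fell and had 52.8, 52.5 and 47.4 CPM in NF1KO BYL719, against 122, 127 and 118 CPM in CTRL BYL719 (-1.27 ± 0.07, adjusted p = 4.63e-08). The other members that fell were TRIB1, SPRY1, SPSB1 and SPRED3, with log2 fold changes between -0.83 and -0.41. FOS, EGR1 and MYC did not pass the test. EGR1 had 0.402, 0.766 and 0.527 CPM in NF1KO BYL719, against 0.169, 0.335 and 0.362 CPM in CTRL BYL719 (0.97 ± 0.37, adjusted p = 0.0549), and it passed without NF1KO BYL719 replicate 1 (adjusted p = 0.0398). MYC had 40.7, 44.5 and 47.9 CPM in NF1KO BYL719, against 37.6, 39.9 and 45.3 CPM in CTRL BYL719. In DMSO 18 of the 26 rose and 2 fell. Between the treatments the difference was positive for 4 members and negative for 3. Leaving out 1 library lowered these counts to as few as 1 positive (without CTRL DMSO replicate 2, NF1KO BYL719 replicate 2 or NF1KO DMSO replicate 3) and 0 negative (without either NF1KO DMSO library). For DUSP6 and SPRY4 the difference was 0.083 ± 0.28, adjusted p = 0.909 and 0.21 ± 0.41, adjusted p = 0.838. Leaving out both CTRL libraries numbered 1 gave 17 raised and 5 lowered members.

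Genes of the kinase cascade itself were called about as often as all genes. Of 20 genes of RAS, RAF, MEK and ERK tested, 4 rose and 3 fell, with a median of 0.036. SHOC2, a scaffold that promotes RAF activation, had 219, 181 and 173 CPM in NF1KO BYL719, against 363, 367 and 340.2 CPM in CTRL BYL719 (-0.90 ± 0.086, adjusted p = 4.63e-06). BRAF rose by a log2 fold change of 0.35 ± 0.071, adjusted p = 0.00179. Of 15 tested genes (16 listed) of the AP-1 and immediate early list, 6 rose and 4 fell, against 20.8% and 19.0% of all tested genes. EGR3, an early growth response factor, had 23.6, 33.4 and 30.9 CPM in NF1KO BYL719, against 0.558, 0.949 and 1.17 CPM in CTRL BYL719 (5.03 ± 0.28, adjusted p = 5.45e-08). JUN and FOSL2, subunits of AP-1, moved the other way. JUN had 21.5, 20.1 and 21.4 CPM in NF1KO BYL719, against 43.0, 41.3 and 43.2 CPM in CTRL BYL719 (-1.02 ± 0.071, adjusted p = 3.43e-07), and FOSL2 had 15.1, 15.1 and 15.1 CPM in NF1KO BYL719, against 38.0, 39.9 and 43.4 CPM in CTRL BYL719 (-1.42 ± 0.071, adjusted p = 1.97e-08).

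Genes of DNA replication and mitosis had the largest shares raised of all lists. Of 32 S phase genes, all of which were tested, 31 rose and none fell, with a median log2 fold change of 1.01. MCM2, a subunit of the replicative helicase, had 189, 181 and 189 CPM in NF1KO BYL719, against 90.1, 84.0 and 86.8 CPM in CTRL BYL719 (1.10 ± 0.057, adjusted p = 2.89e-08). RRM2, the small subunit of ribonucleotide reductase, had 389, 338 and 340.1 CPM in NF1KO BYL719, against 148, 139 and 122 CPM in CTRL BYL719 (1.38 ± 0.083, adjusted p = 9.26e-08). TK1, thymidine kinase, had 184, 179 and 203 CPM in NF1KO BYL719, against 69.0, 73.7 and 72.3 CPM in CTRL BYL719 (1.40 ± 0.084, adjusted p = 9.4e-08). All 3 were higher in NF1KO. CLSPN, a checkpoint adaptor, was the member that did not pass and had 21.2, 21.4 and 20.1 CPM in NF1KO BYL719, against 19.9, 10.3 and 9.32 CPM in CTRL BYL719 (0.66 ± 0.27, adjusted p = 0.068).

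Of 34 G2/M and mitosis genes tested, 31 rose and none fell, with a median of 1.09. PLK1, a mitotic kinase, had 108, 109.9 and 117.2 CPM in NF1KO BYL719, against 41.3, 40.6 and 39.3 CPM in CTRL BYL719 (1.47 ± 0.064, adjusted p = 6.7e-09). CCNB1, which encodes cyclin B1, had 239, 235 and 267 CPM in NF1KO BYL719, against 99.9, 102 and 90.4 CPM in CTRL BYL719 (1.34 ± 0.075, adjusted p = 5.45e-08). CCNA2, which encodes cyclin A2 and overlaps EXOSC9, had 157, 145 and 139.7 CPM in NF1KO BYL719, against 58.6, 56.1 and 50.1 CPM in CTRL BYL719 (1.42 ± 0.074, adjusted p = 3.06e-08). The 3 kinase and cyclin genes were higher in NF1KO. Without drug the gap was smaller: PLK1 had 162 and 168 CPM in NF1KO DMSO, against 128, 142 and 140.3 CPM in CTRL DMSO (0.27 ± 0.069, adjusted p = 0.0172), and CCNA2 had 187 and 179.7 CPM in NF1KO DMSO, against 169, 183 and 175 CPM in CTRL DMSO (0.06 ± 0.081, adjusted p = 0.639). In DMSO 2 S phase genes rose and 1 fell, and 1 G2/M gene rose and 4 fell. These small counts moved with single libraries. Without CTRL DMSO replicate 2, 0 S phase genes rose and 0 G2/M genes fell, and without either NF1KO DMSO library no S phase gene rose and no G2/M gene rose or fell. Leaving out CTRL DMSO replicate 1 gave 1 raised S phase gene and 1 lowered G2/M gene, with no G2/M gene raised, and leaving out CTRL DMSO replicate 3 gave 1 raised S phase gene. Lowered G2/M genes numbered 7 without CTRL BYL719 replicate 1, 8 without both CTRL libraries numbered 1, and 1 or 2 without CTRL BYL719 replicate 2 or any NF1KO BYL719 library. The difference between treatments was positive for 31 of 32 S phase genes and 30 of 34 G2/M genes and negative for none, with median differences of 0.98 and 1.25. The proliferation marker MKI67 and the centromere proteins CENPF and CENPE were the G2/M members that did not pass.

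In those exceptions CTRL BYL719 replicate 1 lay above the other libraries of its group. MKI67 had 142, 159 and 176 CPM in NF1KO BYL719, against 209, 73.2 and 67.4 CPM in CTRL BYL719 (0.45 ± 0.43, adjusted p = 0.443), and CENPF had 289, 292 and 266 CPM in NF1KO BYL719, against 426, 169 and 168 CPM in CTRL BYL719 (0.15 ± 0.38, adjusted p = 0.784). The NF1KO libraries lay between replicate 1 and the other CTRL libraries. Without both CTRL libraries numbered 1, the log2 fold change was 1.18 ± 0.15 (adjusted p = 2.84e-05) for MKI67, 0.75 ± 0.093 (adjusted p = 2.13e-05) for CENPF and 0.98 ± 0.10 (adjusted p = 3.94e-06) for CENPE, and 32 S phase and 34 G2/M genes rose. These genes, singled out after their values were seen, have long transcripts of 12678, 10307 and 8612 nucleotides. The slope with transcript length of CTRL BYL719 replicate 1 is given above. CLSPN, also higher in that library, has a longest transcript of 4769 nucleotides. It lies in the fifth from 4040 to 5706 nucleotides, where the median deviation of that library was 0.027. The part of transcript length in these values was not tested. Leaving out CTRL BYL719 replicate 1 alone gave MKI67 a value of 1.18 (adjusted p = 0.0155) and CLSPN one of 1.09 (adjusted p = 0.000962). CENPF, at 0.74 (adjusted p = 0.0680), and CENPE, at 0.98 (adjusted p = 0.0679), still missed the threshold there.

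**Figure D4:**
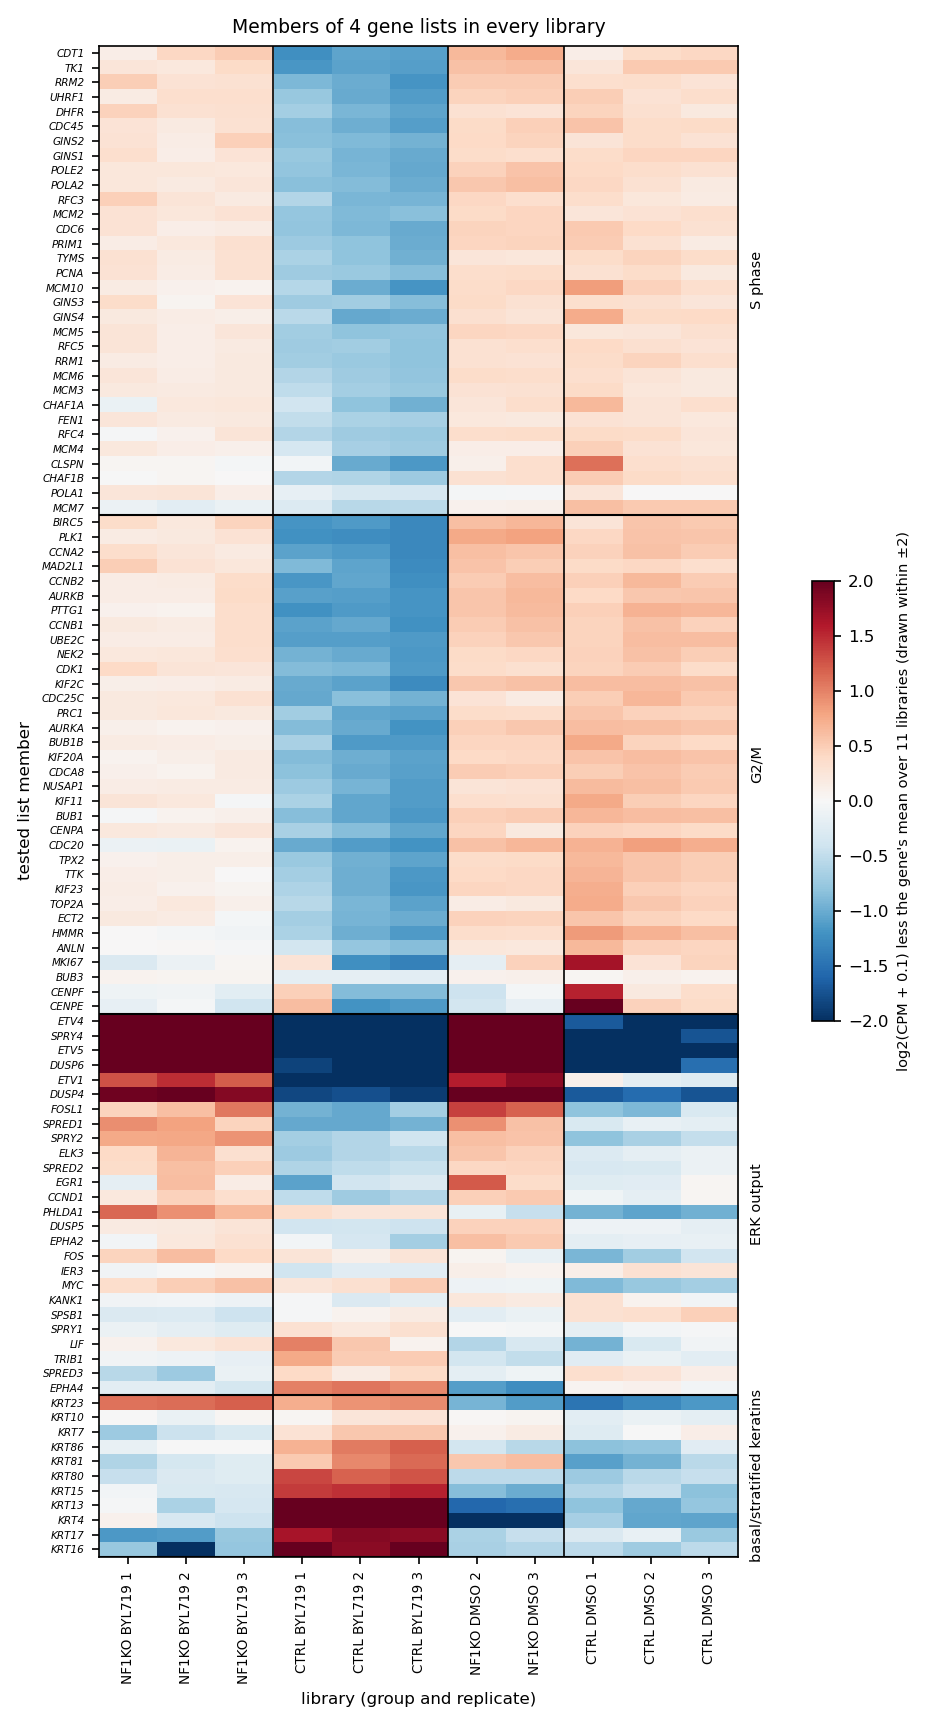
Log2(CPM + 0.1) of each tested member of 4 gene lists in each of the 11 libraries, less the gene's mean over the libraries, drawn within 2 units either side. CTRL BYL719 is low across S phase and G2/M genes and high across most keratins, apart from the MKI67, CENPF, CENPE and CLSPN rows, where CTRL BYL719 replicate 1 is near or above NF1KO BYL719.

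Regulators of the G1 to S transition followed. Of 26 tested genes (27 listed), 17 rose and 2 fell, and 1 fell without any single NF1KO library, CTRL DMSO replicate 2 or 3 or CTRL BYL719 replicate 1. E2F1, a transcription factor of S phase genes, had 80.3, 72.7 and 75.8 CPM in NF1KO BYL719, against 40.9, 32.3 and 32.3 CPM in CTRL BYL719 (1.12 ± 0.092, adjusted p = 1.42e-06), and MYBL2, of the MYB family, had 231, 224 and 244 CPM in NF1KO BYL719, against 123.5, 114 and 106 CPM in CTRL BYL719 (1.03 ± 0.068, adjusted p = 2.06e-07). CDK inhibitors moved both ways. CDKN2B, which encodes p15, fell and had 6.43, 5.71 and 5.56 CPM in NF1KO BYL719, against 27.0, 21.4 and 19.3 CPM in CTRL BYL719 (-1.93 ± 0.12, adjusted p = 1.52e-07). CDKN1A, which encodes p21, rose and had 40.8, 42.4 and 44.9 CPM in NF1KO BYL719, against 12.7, 15.1 and 16.3 CPM in CTRL BYL719 (1.54 ± 0.12, adjusted p = 7.88e-07). CDKN1A was also raised in DMSO (1.32 ± 0.13, adjusted p = 1.42e-05), whereas the CDKN2B gap was wider under BYL719 (difference -1.39 ± 0.18, adjusted p = 0.000504).

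The promoters of cell cycle genes were read because these members moved together. Sequence upstream of the gene start was taken from RefSeq on GRCh38.p14 in the direction of transcription, and 12380 of 16081 tested genes had an entry (77.0%). The search, on both strands, was for CCAAT boxes (CCAAT or ATTGG), the cell cycle homology region CHR (TTTGAA or TTCAAA), an E2F motif (TTNGCGC or GCGCNAA), an ETS motif (CCGGAAG or CTTCCGG) and an AP-1 motif (TGANTCA). None of these letter strings contains another. PLK1 (chr16:23678639-23678888, plus strand), CCNA2 (chr4:121823884-121824133, minus strand) and RRM2 (chr2:10122489-10122738, plus strand) are shown 5′ to 3′ as members with full values above, with the motif letters found in capitals.
PLK1: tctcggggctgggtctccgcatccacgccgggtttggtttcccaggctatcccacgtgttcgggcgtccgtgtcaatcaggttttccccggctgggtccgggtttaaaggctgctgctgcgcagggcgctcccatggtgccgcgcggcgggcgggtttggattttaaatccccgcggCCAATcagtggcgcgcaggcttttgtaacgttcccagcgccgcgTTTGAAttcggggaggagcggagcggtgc
CCNA2: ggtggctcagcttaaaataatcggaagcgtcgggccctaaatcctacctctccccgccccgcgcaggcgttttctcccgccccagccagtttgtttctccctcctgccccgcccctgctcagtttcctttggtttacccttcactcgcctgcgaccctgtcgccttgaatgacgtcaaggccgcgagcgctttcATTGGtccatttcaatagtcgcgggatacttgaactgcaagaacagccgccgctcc
RRM2: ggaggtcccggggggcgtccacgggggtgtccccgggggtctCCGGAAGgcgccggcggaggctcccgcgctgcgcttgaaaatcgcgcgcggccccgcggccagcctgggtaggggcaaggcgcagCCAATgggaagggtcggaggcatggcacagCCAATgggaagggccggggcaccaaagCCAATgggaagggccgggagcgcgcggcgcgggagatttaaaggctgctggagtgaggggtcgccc
PLK1 holds a CCAAT box and, 29 bases before the gene start, a CHR. CCNA2 holds a CCAAT box and no exact match to the CHR letters. RRM2 holds an ETS motif and 3 CCAAT boxes. Other members with full values above were read but are not shown. Of these, MCM2 and SPRY4 held none of the motifs and DUSP6 held a CCAAT box. The ETS motif was in 5 of 28 S phase genes with an entry (17.9%), against 15.0% of all tested genes with one. Of 28 G2/M genes with an entry, 23 held a CCAAT box (82.1%) and 15 a CHR (53.6%), against 35.4% and 8.63% of all tested genes with an entry. Of 28 S phase genes with an entry, 17 held a CCAAT box (60.7%) and 9 the E2F motif (32.1%), against 10.6% of all for E2F. The CHR was in 1 of these S phase genes (3.57%). Of the 28 G2/M genes, 4 held the ETS motif (14.3%) and 5 the E2F motif (17.9%). The AP-1 motif was in 1 of the S phase and 0 of the G2/M genes, against 3.98% of all. Of the ERK output list 15 of 26 had an entry, and 0 of the 15 held the ETS motif, but with under 80% of the list covered that count is void. A match is a description of letters and was not tested as a binding site.

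Keratins of basal and stratified epithelium were the group with the largest share lowered. Of 15 listed, 11 were tested, and 10 fell and 1 rose, with a median log2 fold change of -1.59. KRT80 had 52.95, 59.2 and 61.3 CPM in NF1KO BYL719, against 183, 164 and 174 CPM in CTRL BYL719 (-1.59 ± 0.083, adjusted p = 3.06e-08). KRT4, a keratin of mucosal epithelium, had 2.88, 2.15 and 2.02 CPM in NF1KO BYL719, against 20.3, 27.9 and 22.1 CPM in CTRL BYL719 (-3.31 ± 0.17, adjusted p = 2.34e-08). KRT15, found in basal cells, had 6.27, 5.24 and 5.22 CPM in NF1KO BYL719, against 17.3, 18.2 and 19.1 CPM in CTRL BYL719 (-1.71 ± 0.11, adjusted p = 1.85e-07). KRT16, a keratin of activated epidermis, had 0.437, 0.128 and 0.436 CPM in NF1KO BYL719, against 4.67, 3.09 and 4.54 CPM in CTRL BYL719 (-3.61 ± 0.30, adjusted p = 1.58e-06). These 4 members were lower in NF1KO. In DMSO 1 rose and 2 fell, with a median of 0.051 (2 and 1 without both CTRL libraries numbered 1), and KRT80 had 50.2 and 50.6 CPM in NF1KO DMSO, against 43.6, 49.6 and 52.8 CPM in CTRL DMSO. The difference between treatments was negative for 9 of the 11 and was -1.64 ± 0.12, adjusted p = 2.21e-05 for KRT80. KRT23 was the exception and averaged 50.01 ± 1.88 CPM in NF1KO BYL719 and 41.4 ± 3.39 CPM in CTRL BYL719 (SD, n = 3 each; log2 fold change 0.27 ± 0.089, adjusted p = 0.0285), which no longer passed with CTRL BYL719 replicate 1 left out (adjusted p = 0.0845), nor with CTRL BYL719 replicate 2 (0.0519), NF1KO BYL719 replicate 2 (0.0594) or NF1KO BYL719 replicate 3 (0.0853).

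Among luminal factors and hormone receptors, 12 of 21 fell and 1 rose, or none rose without CTRL BYL719 replicate 1 or NF1KO BYL719 replicate 2. EHF, an epithelial ETS factor, had 278, 268 and 232 CPM in NF1KO BYL719, against 632, 701 and 724 CPM in CTRL BYL719 (-1.40 ± 0.079, adjusted p = 5.94e-08). ESR1, the estrogen receptor, had 269, 251 and 239 CPM in NF1KO BYL719, against 351, 307 and 339.8 CPM in CTRL BYL719 (-0.40 ± 0.077, adjusted p = 0.00141). ESR1 was further apart in DMSO, at 181 and 181 CPM in NF1KO DMSO, against 349.9, 299 and 319 CPM in CTRL DMSO, and the difference was positive (0.44 ± 0.12, adjusted p = 0.035). That difference missed the threshold without CTRL DMSO replicate 1 or 3, CTRL BYL719 replicate 2 or 3, or NF1KO BYL719 replicate 1 or 2 (adjusted p = 0.0640 to 0.0827). It was also lost without either NF1KO DMSO library. PRLR, the prolactin receptor, had 2798, 2342 and 2158 CPM in NF1KO BYL719, against 4420.2, 3469 and 4028 CPM in CTRL BYL719 (-0.71 ± 0.12, adjusted p = 0.000533). FOXA1 also fell (-0.30), and GATA3 had 0.13 ± 0.094, adjusted p = 0.298. Targets of the estrogen receptor moved both ways but more often rose: 16 of 30 rose and 6 fell, with a median of 0.23. Over all tested genes 20.8% rose and 19.0% fell. RERG, a small GTPase named for its response to estrogen, had 61.0, 54.0 and 52.1 CPM in NF1KO BYL719, against 16.8, 16.3 and 19.1 CPM in CTRL BYL719 (1.67 ± 0.081, adjusted p = 1.69e-08). STC2, a secreted glycoprotein, had 457, 503 and 501 CPM in NF1KO BYL719, against 815, 772 and 805 CPM in CTRL BYL719 (-0.71 ± 0.061, adjusted p = 1.86e-06).

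Under BYL719, receptor genes that signal into RAS and PI3K were more often lower than higher. Of 12 tested genes (15 listed) of the ERBB list, 6 fell and 4 rose, against 19.0% and 20.8% of all tested genes. In DMSO 4 of this list fell and 5 rose, or 3 rose without CTRL DMSO replicate 1 or 2. EGFR had 7.39, 7.19 and 7.60 CPM in NF1KO BYL719, against 23.7, 17.5 and 18.8 CPM in CTRL BYL719 (-1.44 ± 0.13, adjusted p = 2.83e-06), and ERBB3 had 418, 436 and 399 CPM in NF1KO BYL719, against 682, 634 and 659 CPM in CTRL BYL719 (-0.66 ± 0.062, adjusted p = 4.19e-06). Both fell, as ERBB2 did. Ligands of EGFR moved both ways. TGFA had 40.8, 38.8 and 37.8 CPM in NF1KO BYL719, against 22.5, 25.5 and 26.9 CPM in CTRL BYL719 (0.65 ± 0.074, adjusted p = 2.33e-05), and AREG, amphiregulin, had 23.9, 29.8 and 31.9 CPM in NF1KO BYL719, against 13.7, 15.1 and 16.3 CPM in CTRL BYL719 (0.92 ± 0.12, adjusted p = 5.16e-05). EREG, epiregulin, rose with them, at 4.59, whereas HBEGF and EGF fell, at -0.63 and -0.30. The HBEGF call missed the threshold without NF1KO BYL719 replicate 2 (adjusted p = 0.0521). NRG4, a ligand of ERBB4, fell too (-0.85), and ERBB4 itself rose (0.54 ± 0.091, adjusted p = 0.000488). Of 22 tested genes (29 listed) of the other receptor tyrosine kinase list, 8 fell and 4 rose, or 2 rose without CTRL BYL719 replicate 3. The share that rose was near that of all tested genes (20.8%), and in DMSO 6 fell and 5 rose. MET, the hepatocyte growth factor receptor, had 18.2, 18.2 and 18.3 CPM in NF1KO BYL719, against 44.2, 47.02 and 49.5 CPM in CTRL BYL719 (-1.36 ± 0.063, adjusted p = 1.03e-08), and FGFR2 had 73.4, 71.4 and 69.7 CPM in NF1KO BYL719, against 216, 195 and 188 CPM in CTRL BYL719 (-1.48 ± 0.076, adjusted p = 2.43e-08). RET, the receptor of GDNF family ligands, had 51.5, 51.0 and 51.2 CPM in NF1KO BYL719, against 24.5, 23.2 and 25.6 CPM in CTRL BYL719 (1.07 ± 0.082, adjusted p = 7.49e-07).

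Within PI3K, AKT and mTOR genes 8 of 30 rose and 6 fell, with a median of -0.062. These counts were near the shares of all tested genes (20.8% higher and 19.0% lower). PIK3R1, which encodes the p85 alpha regulatory subunit, had 337, 324 and 274 CPM in NF1KO BYL719, against 70.4, 63.5 and 75.9 CPM in CTRL BYL719 (2.16 ± 0.10, adjusted p = 7.55e-09). It was already apart in DMSO, at 276 and 270.4 CPM in NF1KO DMSO, against 88.7, 77.0 and 83.7 CPM in CTRL DMSO, and the difference was 0.44 ± 0.14, adjusted p = 0.0707. RHEB, the GTPase that activates mTORC1, rose by 0.53 ± 0.073, adjusted p = 0.000111. Of 22 tested genes (24 listed) of the FOXO and PI3K feedback list, 10 fell and 6 rose. TXNIP, an inhibitor of thioredoxin, had 58.8, 55.4 and 54.2 CPM in NF1KO BYL719, against 113, 112 and 119 CPM in CTRL BYL719 (-1.03 ± 0.074, adjusted p = 4.39e-07), and CCNG2, which encodes cyclin G2, had 43.8, 41.2 and 31.5 CPM in NF1KO BYL719, against 79.7, 82.8 and 80.4 CPM in CTRL BYL719 (-1.06 ± 0.11, adjusted p = 9e-06). IRS1, the insulin receptor adaptor, had 192, 195 and 180.0 CPM in NF1KO BYL719, against 128, 116 and 126 CPM in CTRL BYL719 (0.62 ± 0.068, adjusted p = 1.69e-05), and its gap was narrower under BYL719 than in DMSO (-0.52 ± 0.10, adjusted p = 0.00685), except that the difference missed the threshold without NF1KO DMSO replicate 3 (adjusted p = 0.0627).

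**Figure D5:**
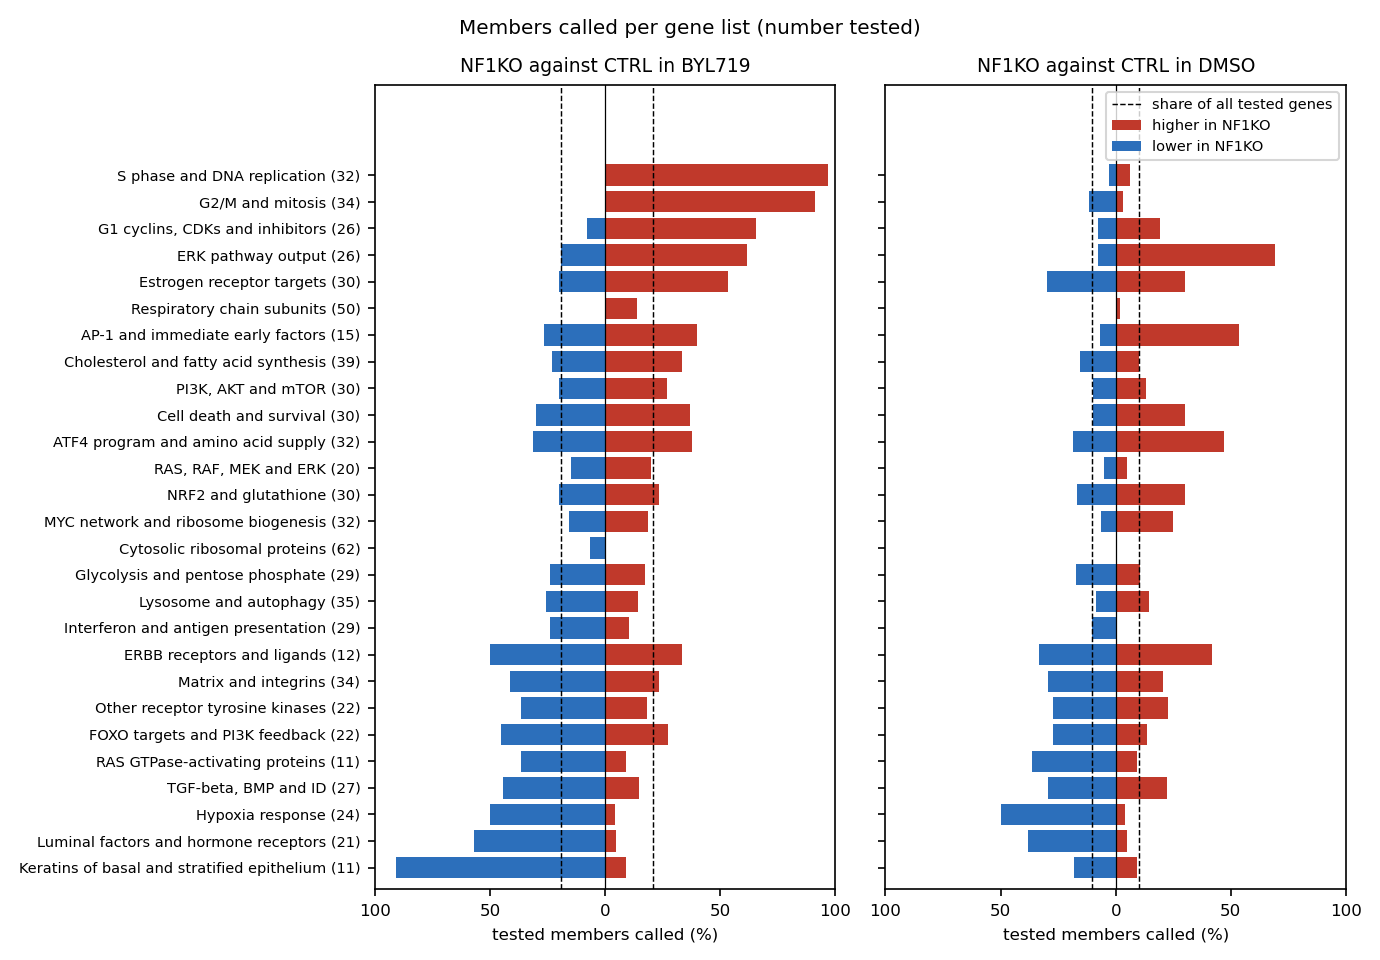
Share of the tested members of each gene list that were called higher (right, red) or lower (left, blue) in NF1KO than in CTRL, in BYL719 and in DMSO, with dashed lines at the shares of all tested genes. S phase, G2/M and keratin lists stand far from the dashed lines in BYL719 and near them in DMSO, and the ERK output list stands to the right in both.

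Of 27 tested genes (29 listed) of the TGF-beta family list, to which TGFB2 belongs, 12 fell, 4 rose and 11 were not called, with a median of -0.28. Of all tested genes 19.0% fell and 20.8% rose. Without NF1KO BYL719 replicate 3, 7 rose. INHBB, an activin subunit, had 63.9, 68.0 and 61.8 CPM in NF1KO BYL719, against 262, 269 and 273 CPM in CTRL BYL719 (-2.06 ± 0.058, adjusted p = 2.25e-10). ID4, an inhibitor of basic helix-loop-helix factors, had 3.65, 2.32 and 2.35 CPM in NF1KO BYL719, against 34.8, 29.7 and 33.8 CPM in CTRL BYL719 (-3.56 ± 0.15, adjusted p = 5.94e-09). The ligand TGFB1 moved against them, with 23.8, 30.9 and 32.8 CPM in NF1KO BYL719, against 5.41, 7.63 and 7.89 CPM in CTRL BYL719 (2.06 ± 0.20, adjusted p = 6.54e-06). ID3 was lower in NF1KO under BYL719, with 9.85, 7.30 and 10.999 CPM in NF1KO BYL719, against 13.7, 14.9 and 14.1 CPM in CTRL BYL719, and higher in NF1KO without drug, with 9.17 and 9.91 CPM in NF1KO DMSO, against 4.24, 4.90 and 4.77 CPM in CTRL DMSO. Its difference was -1.64 ± 0.20, adjusted p = 0.000257.

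Of 34 tested genes (37 listed) of the matrix and integrin list, 14 fell and 8 rose, against 19.0% and 20.8% of all tested genes. The share that rose was near that of all genes. VCAN, the proteoglycan versican, had 24.2, 23.2 and 20.9 CPM in NF1KO BYL719, against 842, 599.7 and 649 CPM in CTRL BYL719 (-4.94 ± 0.17, adjusted p = 9.65e-10). COL5A1, a fibrillar collagen chain, had 1.54, 2.70 and 3.18 CPM in NF1KO BYL719, against 40.2, 31.1 and 30.6 CPM in CTRL BYL719 (-3.78 ± 0.21, adjusted p = 4.59e-08). ITGB6 and ITGB8, integrin beta chains that bind latent TGF-beta, rose. ITGB6 had 12.7, 16.9 and 12.7 CPM in NF1KO BYL719, against 1.47, 1.56 and 1.33 CPM in CTRL BYL719 (3.28 ± 0.16, adjusted p = 1.97e-08), and ITGB8 had 3.34, 3.56 and 3.02 CPM in NF1KO BYL719, against 0.457, 0.409 and 0.552 CPM in CTRL BYL719 (2.80 ± 0.19, adjusted p = 2.46e-07). CLDN1, a tight junction claudin, had 21.1, 19.2 and 16.3 CPM in NF1KO BYL719, against 288, 264 and 248 CPM in CTRL BYL719 (-3.82 ± 0.10, adjusted p = 1.46e-10). PREX1, a RAC exchange factor that responds to PI3K, had 114, 116 and 122 CPM in NF1KO BYL719, against 792, 740.3 and 816 CPM in CTRL BYL719 (-2.74 ± 0.075, adjusted p = 1.46e-10).

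Further genes with the largest rises came from varied families. AOC1, a diamine oxidase, had 53.2, 47.8 and 51.8 CPM in NF1KO BYL719, against 0.372, 0.763 and 0.846 CPM in CTRL BYL719 (6.27 ± 0.19, adjusted p = 3.45e-10). DOK7, an adaptor of receptor tyrosine kinases, had 37.8, 51.4 and 59.3 CPM in NF1KO BYL719, against 0.524, 0.670 and 0.932 CPM in CTRL BYL719 (6.12 ± 0.24, adjusted p = 2.6e-09). CXCR4, the CXCL12 receptor, had 60.5, 59.6 and 67.2 CPM in NF1KO BYL719, against 2.77, 3.72 and 3.57 CPM in CTRL BYL719 (4.22 ± 0.11, adjusted p = 1.34e-10). CLSTN2, KCNE4, LRP2, MMP16, TUBA3C, ACOX2, MAOA, NDP and PRDM1 complete the 14, with log2 fold changes between 3.68 and 5.87. TUBA3C belongs to a family of near-identical tubulin genes and is uncertain for that reason. Among the largest falls, OLR1, a scavenger receptor for oxidised lipoprotein, had 4.63, 3.87 and 3.93 CPM in NF1KO BYL719, against 70.5, 78.1 and 61.0 CPM in CTRL BYL719 (-4.07 ± 0.12, adjusted p = 3.2e-10). GNG11, a G protein gamma subunit, had 20.7, 16.7 and 21.2 CPM in NF1KO BYL719, against 248, 298 and 316 CPM in CTRL BYL719 (-3.88 ± 0.11, adjusted p = 2.26e-10). PHACTR1, LDLRAD4, PLCE1, VTCN1 and ANXA3 had log2 fold changes between -4.12 and -3.53, with PHACTR1 and PLCE1 overlapping annotated genes that hold more counts. By change in CPM, which favours abundant and long transcripts, IGFBP5, an IGF-binding protein, fell most. IGFBP5 had 955, 1190.1 and 1026 CPM in NF1KO BYL719, against 3809.7, 4231 and 4277 CPM in CTRL BYL719 (-1.96 ± 0.093, adjusted p = 1.37e-08). The largest rise in CPM was that of PEG10, an imprinted gene derived from a retroelement, with 1934, 2194 and 1899 CPM in NF1KO BYL719, against 1058, 968 and 1120.2 CPM in CTRL BYL719 (0.94 ± 0.093, adjusted p = 6.68e-06). CRABP2, a retinoic acid binding protein, had 1308, 1279.9 and 1572 CPM in NF1KO BYL719, against 638, 815 and 789 CPM in CTRL BYL719 (0.89 ± 0.11, adjusted p = 3.36e-05).

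Stress and metabolic lists were mixed, and their counts stand beside 20.8% higher and 19.0% lower over all tested genes. Hypoxia response genes leaned to lower levels, with 12 of 24 lowered and 1 raised (median -0.33). In DMSO 12 were also lowered and 1 raised (median -0.29), and the median difference between treatments was -0.0032. The difference was negative for 3 members, among them EPAS1 and ADM, and positive for 2. EPAS1, the HIF-2 alpha subunit, had 179, 183 and 168 CPM in NF1KO BYL719, against 534, 537 and 492 CPM in CTRL BYL719 (-1.56 ± 0.079, adjusted p = 2.24e-08), and ADM, adrenomedullin, had 0.873, 0.584 and 0.745 CPM in NF1KO BYL719, against 6.04, 6.79 and 6.26 CPM in CTRL BYL719 (-3.11 ± 0.16, adjusted p = 3.26e-08). VEGFA, a HIF target, had 17.4, 15.9 and 19.2 CPM in NF1KO BYL719, against 19.8, 17.3 and 16.2 CPM in CTRL BYL719 and did not pass. Of 32 genes of the ATF4 program 12 rose and 10 fell. SLC7A5, an amino acid transporter, had 449.8, 414 and 426 CPM in NF1KO BYL719, against 949, 973 and 948 CPM in CTRL BYL719 (-1.15 ± 0.062, adjusted p = 3.68e-08). Of 30 tested genes (31 listed) of the NRF2 list 7 rose and 6 fell, and TXNRD1, thioredoxin reductase, had 187, 169 and 171 CPM in NF1KO BYL719, against 412, 459 and 379.8 CPM in CTRL BYL719 (-1.25 ± 0.08, adjusted p = 1.67e-07).

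In glycolysis and the pentose phosphate pathway 5 of 29 tested genes rose and 7 fell, near the shares of all tested genes (20.8% and 19.0%). PFKFB3, a regulator of phosphofructokinase, had 395, 453 and 412 CPM in NF1KO BYL719, against 167, 192 and 193 CPM in CTRL BYL719 (1.19 ± 0.085, adjusted p = 4.24e-07). Cholesterol and fatty acid synthesis had 13 of 39 raised and 9 lowered. ELOVL6, a fatty acid elongase, had 34.3, 36.4 and 34.1 CPM in NF1KO BYL719, against 18.2, 17.4 and 16.5 CPM in CTRL BYL719 (1.01 ± 0.063, adjusted p = 1.31e-07). Among 30 genes of cell death and survival, 11 rose and 9 fell. BCL2, an antiapoptotic protein, had 19.5, 19.7 and 18.9 CPM in NF1KO BYL719, against 5.89, 5.34 and 5.63 CPM in CTRL BYL719 (1.78 ± 0.11, adjusted p = 1e-07), and FAS, a death receptor, had 11.8, 11.7 and 11.7 CPM in NF1KO BYL719, against 3.59, 3.35 and 3.47 CPM in CTRL BYL719 (1.76 ± 0.08, adjusted p = 9.58e-09). Of 35 lysosome and autophagy genes 5 rose and 9 fell, of 29 interferon genes 3 rose and 7 fell, and of 32 MYC network genes 6 rose and 5 fell. Without CTRL BYL719 replicate 2, 5 interferon genes rose and 3 fell, and 3 or 4 fell without NF1KO BYL719 replicate 1 or 2 or either NF1KO DMSO library. Without both CTRL libraries numbered 1, 12 MYC network genes rose. Respiratory chain subunits (7 raised and 0 lowered of 50) and cytosolic ribosomal proteins (0 raised and 4 lowered of 62) held fewer calls than all genes did. That changed with CTRL BYL719 replicate 1 left out, where 26 ribosomal protein genes fell and 4 respiratory chain genes rose and 4 fell, and 35 and 6 fell without both CTRL libraries numbered 1. Without another single BYL719 library as few as 1 ribosomal protein gene fell, and 3 respiratory chain genes rose and 1 fell without NF1KO BYL719 replicate 3.

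The test of the difference between treatments picked out further genes by its own size. HAUS1, a subunit of the augmin complex of the spindle, had 49.9, 50.4 and 57.1 CPM in NF1KO BYL719, against 9.59, 10.3 and 9.87 CPM in CTRL BYL719 (2.403 ± 0.075, adjusted p = 3.93e-10). In DMSO it had 24.7 and 24.7 CPM in NF1KO DMSO, against 15.7, 16.7 and 16.9 CPM in CTRL DMSO, which gave a difference of 1.81 ± 0.11, adjusted p = 1.13e-05. GATA4 and ACOX2 had differences of 1.95 and 1.68, and the cell cycle genes PCLAF and CDC25C, the second overlapping FAM53C, had 1.58 and 1.52. KIF15 and GPC3 complete the 8 largest positive differences together with EGR3, at 1.58, 1.54 and 1.86. KIF15 was high in CTRL BYL719 replicate 1, with 30.0, 31.1 and 29.4 CPM in NF1KO BYL719, against 20.9, 10.1 and 9.30 CPM in CTRL BYL719. Its difference missed the threshold without CTRL BYL719 replicate 2 (adjusted p = 0.0679), CTRL BYL719 replicate 3 (0.0601) or any of the NF1KO BYL719 libraries (0.0543 to 0.0682), and without NF1KO DMSO replicate 2 (0.145) or 3 (0.0994). The EGR3 difference narrowly missed without NF1KO DMSO replicate 2 (0.0503).

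Several negative differences came from reversed line differences. CPA4, a carboxypeptidase, had 14.8, 14.7 and 15.4 CPM in NF1KO BYL719, against 41.7, 41.2 and 42.7 CPM in CTRL BYL719. In DMSO it had 12.3 and 11.4 CPM in NF1KO DMSO, against 5.19, 6.94 and 5.96 CPM in CTRL DMSO, so that NF1KO was lower under BYL719 and higher without it (difference -2.46 ± 0.14, adjusted p = 9e-06). HSD17B1, which makes estradiol from estrone and overlaps LOC108783654, had 15.8, 13.0 and 15.3 CPM in NF1KO BYL719, against 44.6, 50.8 and 48.9 CPM in CTRL BYL719, and in DMSO 12.8 and 11.8 CPM in NF1KO DMSO, against 7.76, 9.15 and 8.78 CPM in CTRL DMSO (-2.23 ± 0.14, adjusted p = 1.24e-05). L1CAM, a cell adhesion molecule, was higher in NF1KO in both treatments but by less under BYL719. It had 107, 122 and 124 CPM in NF1KO BYL719, against 93.9, 72.4 and 71.7 CPM in CTRL BYL719, and in DMSO 128 and 125 CPM in NF1KO DMSO, against 21.8, 19.7 and 20.05 CPM in CTRL DMSO (-2.05 ± 0.15, adjusted p = 2.21e-05). SPNS2, a sphingosine-1-phosphate exporter that overlaps MYBBP1A, HS3ST3B1 and NTN4 had differences of -2.08, -1.84 and -1.67.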

How the data were processed

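RNA-seq with a stranded poly(A) kit and single reads was described in the labels' protocols for 12 samples, and 11 had a column. The gene counts were deposited by the authors as whole numbers, not normalized. Per the submitters' processing notes the tools were STAR 2.5.2a, SAMtools 1.7, Picard 2.9.2 and edgeR, and the build was hg38. The counter, its annotation and its use of strand are not given in the sources used here. Of the Entrez identifiers 27740 (99.6%) matched RefSeq, and 63 rows had no symbol. Counts were filtered with filterByExpr, scaled by TMM and tested with edgeR 4.0.16 in R 4.3.3 (quasi-likelihood, 4 groups, 7 residual degrees of freedom, two-sided). Every adjusted p is Benjamini-Hochberg over the 16081 genes tested in that comparison. A standard error is the log2 fold change over the square root of F. Alternatives used limma 3.58.1 and DESeq2 1.42.0, and figures matplotlib 3.10.9 in Python 3.11.15.

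The members and lists were chosen with earlier results of these data known. Named genes were NF1, the 4 markers, the 14 largest rises and falls and the 8 largest by CPM and by difference (mean log2 CPM of at least 2, no overlap of libraries for the BYL719 ranks), and up to 5 members a list by adjusted p. Further list members were named after their values were seen. Some genes that the rule names are not reported here. In simulated data for the BYL719 comparison over 16081 genes, with 200 changed, 79.1% of 1.5-fold, 97.0% of 2-fold and 100% of 4-fold changes were called, with 12 unchanged genes called (6.12% of calls). Genes of the lowest mean level were left unchanged, and every group was drawn from the CTRL BYL719 means. Far fewer genes were changed than were called in the real comparison. These shares therefore do not cover low-count genes or the false calls in the real data. The labels do not state separate cultures, so p-values cover only the spread between these libraries, which may be technical, and floors cover counting error only.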

Additional observations from a re-analysis of the deposited data

Results flagged for a closer look

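By the edgeR test of the difference, the gap between the lines differed between BYL719 and DMSO for 61 of 129 genes described in Results. Genes named only further below, such as S100A7 and ALDH1L2, were not among the 129. Over all tested genes the difference between treatments was positive for 5.68% and negative for 3.71%. Many of the named genes were chosen by the size of a fold change or of this difference, so the count of 61 is a description. The values are log2 fold changes of NF1KO over CTRL in BYL719 less those in DMSO.

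The difference was positive for 30 genes. In BYL719 less DMSO, the values were 5.20 for ETV4, 2.58 for ETV1, 1.95 for GATA4, 1.86 for EGR3, 1.81 for HAUS1 and 1.68 for ACOX2. The list went on with 1.58 for PCLAF, 1.58 for KIF15, 1.54 for GPC3, 1.52 for CDC25C, 1.40 for KCNE4 and 1.38 for TRIM55. Next by size came 1.37 for MAOA, 1.36 for CCNA2, 1.28 for CCNB1, 1.25 for FAS, 1.23 for TK1 and 1.20 for PLK1. Further values were 1.20 for RRM2, 1.06 for CLSTN2, 1.05 for MYBL2, 1.01 for E2F1, 1.01 for MMP16 and 0.99 for MCM2. Smaller ones were 0.94 for TUBA3C, 0.83 for ELOVL6, 0.78 for SPRED1, 0.77 for RERG, 0.56 for RET and 0.44 for ESR1. The ETV4 value (adjusted p = 0.0432) depends on the prior count, since CTRL BYL719 held no count of it. That difference missed the threshold when any single CTRL library, or NF1KO BYL719 replicate 2 or 3, was left out (adjusted p = 0.0592 to 0.101). It also missed the threshold without either NF1KO DMSO library.

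It was negative for 31 genes. The values, from the most negative, were -3.56 for KRT16, -2.46 for CPA4, -2.23 for HSD17B1, -2.08 for SPNS2, -2.05 for L1CAM and -1.84 for HS3ST3B1. Also past the threshold were -1.67 for NTN4, -1.64 for ID3, -1.64 for KRT80, -1.59 for ADM, -1.57 for COL5A1 and -1.48 for ANXA3. The range continued with -1.39 for KRT15, -1.39 for CDKN2B, -1.32 for OLR1, -1.14 for EPAS1, -1.14 for CLDN1 and -1.02 for NDP. Close behind were -0.93 for INHBB, -0.92 for IGFBP5, -0.86 for TXNRD1, -0.85 for ERBB2, -0.84 for VTCN1 and -0.81 for JUN. Near the lower end were -0.62 for GNG11, -0.61 for FOSL2, -0.57 for MYC, -0.53 for SPRY1, -0.52 for IRS1 and -0.47 for TRIB1. The remaining value was -0.45 for FGFR2.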

How the results depend on the processing

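Leaving out each library in turn gave 2769 to 3560 higher and 2529 to 3230 lower genes in BYL719, 719 to 865 and 711 to 795 past 2-fold, and an NF1 log2 fold change of -8.49 to -7.88. In DMSO it gave 744 to 2043 higher and 779 to 2213 lower genes, and for the difference 495 to 1233 positive and 243 to 922 negative. The lowest DMSO and difference counts came without NF1KO DMSO replicate 2 or 3, which leaves 1 library assumed to vary like the other groups, and the highest without CTRL BYL719 replicate 1. Genes lower by more than 2-fold numbered 502 where at least 1 CPM in at least 3 libraries was required, since fewer genes were tested. Leaving out both CTRL libraries numbered 1, chosen after seeing the data like all alternatives for DMSO and the difference, gave 1393 positive and 1018 negative differences. There ALDH1L2, a list member not called with all libraries, had a log2 fold change of 0.245 (adjusted p = 0.0235) with the other sign. The cause was not tested. Same-numbered NF1KO and CTRL libraries under BYL719 did not pair (correlations of deviations 0.061, -0.087 and 0.154), whereas same-numbered CTRL libraries of the treatments deviated together (0.595, 0.337 and 0.318). With the replicate block 4146 genes were higher and 3784 lower in BYL719, 817 and 787 past 2-fold, 2040 and 2133 in DMSO, and 1351 positive and 878 negative for the difference, with NF1 at -8.11, and CLSPN (adjusted p = 0.00209) and EGR1 (0.0235) passed in BYL719. Among the genes described in Results, 9 had a BYL719 call that changed under some alternative and none reversed. Of the called differences of those genes, 17 missed the threshold without at least 1 library, 12 of them without one other than NF1KO DMSO. Depth limits genes near 0 CPM, where a few counts set the fold.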

Other observations

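Genes without a count in CTRL BYL719 were chosen after their values were seen. S100A7, a secreted S100 protein of stratified epithelium, had 428 counts over the NF1KO BYL719 libraries, at least 146-fold higher against a floor of 3 counts over the CTRL group. TRPA1, a cation channel, had 112 counts, at least 38.2-fold higher, and PECAM1, an endothelial adhesion molecule, had 92 counts, at least 31.4-fold higher. HGF, the ligand of MET, had 78 counts, at least 26.6-fold higher.

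Calls were uneven on chromosome 7. Of its 796 tested genes 14.8% were higher and 31.2% lower in BYL719, against 20.8% and 19.0% of all tested genes. Its median log2 fold change was -0.13 in BYL719 and -0.10 in DMSO. Other chromosomes were uneven by less, such as chromosome 5 with 25% lower and chromosome 18 with 26.4% higher. Copy number was not measured.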
